A study of Mus musculus with 7 samples.

Results

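The mouse genes for integrins and laminins were compared between separate cell populations. These bear on the conversion of fibroblasts into neural stem cells by the reprogramming factors Oct4, Sox2, Klf4 and Myc (OSKM). The genes were taken by symbol, as the integrin alpha genes (Itga), the integrin beta genes (Itgb) and the laminin alpha, beta and gamma chain genes (Lama, Lamb, Lamc). This gave 37 of 29686 genes, 26 for integrins and 11 for laminins. Of these, 31 reached 2 RPKM (reads mapped to an exon, divided by its length in kilobases and by the library's depth) in at least 1 library. The other 6, Itga2, Itga10, Itgad, Itgax, Itgb6 and Lamc3, stayed under 2 RPKM in all 7 libraries.

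RNA-seq of 7 populations was used, with 1 library each. The day 6 cells and both OSKM neural stem cell (NSC) lines were of the B6/129 background and carried Rosa26-TdTomato from a B6 female and Col1a-OSKM from a 129 male, and the protocol names a Nanog-CreER reporter in the starting fibroblasts. The day 6 cells had doxycycline, which switches on OSKM, and 4-hydroxytamoxifen, which activates CreER, and were sorted as tdTomato positive with no feeder cells. Tomato therefore marks cells, and descendants of cells, in which the Nanog-driven CreER had acted. The OSKM NSC were subcloned mechanically without feeders, a Tomato-positive and a Tomato-negative line. The Tomato-negative line does not descend from Tomato-marked cells such as the sorted day 6 cells. Differences from day 6 are thus differences between populations and not changes within a lineage. Brain NSC came from BDF2 embryos at E12.5 by their label, although the growth protocol gives a later embryonic day, and were grown on plates coated with poly-D-lysine and laminin. Mouse embryonic fibroblasts (MEF) and induced pluripotent stem cells (iPSC) were of strain A12 (Mbd3 flox/-), and v6.5 embryonic stem cells (ESC) were grown on MEF feeders. The iPSC entry marks its feeder cells with question marks. MEF therefore differ from the day 6 cells in strain as well as in stage, and these cannot be told apart.

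Integrins are receptors of 1 alpha and 1 beta chain that span the cell membrane and bind matrix proteins or proteins on other cells. Laminins are trimers of 1 alpha, 1 beta and 1 gamma chain and are the main adhesive proteins of basement membranes, the sheets under epithelia and around vessels and muscle. Integrin α6β4 and laminins with the Lama3 and Lamb3 chains anchor epithelia such as the epidermis, while α6β1 binds laminins in neural and pluripotent cells.

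The libraries held between 19 and 58 megareads, with fewest in Tomato-positive OSKM NSC. With 1 library per population there is no measure of replicate error and no test was made. A gene was called higher or lower where the log2 ratio of RPKM + 1 reached 2 (4-fold) and a compared library reached 2 RPKM, and where a side had 2 libraries both had to pass. Intervals are exact 95% intervals of the recovered reads and cover counting error only, and an RPKM of 0 allows up to 3 reads. The 6 pluripotency markers summed to 8870.4 RPKM in ESC, 6978 RPKM in iPSC and 1042 RPKM on day 6, and were under 12 RPKM in sum elsewhere. On day 6 Pou5f1, the gene of the induced factor Oct4, made up 886 RPKM of this sum, while Zfp42 was at 9.62 RPKM, Esrrb at 15.7 RPKM and Dppa5a at 12.3 RPKM. The MEF library also held 3690.3 RPKM over 10 leukocyte markers. On day 6 a single gene, Gm42418, took 8.82% of the summed exon signal, against at most 0.0657% in any other library.

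The use of an alternative exon of Itga6, which codes for the α6 chain of laminin receptors, differed between the libraries. Integrin α6 is made with an A or a B cytoplasmic tail. In the GENCODE M21 annotation the A exon, at chr2:71853534-71853663 on the plus strand, carries its own stop codon. The B tail is read from the last exon when the A exon is skipped. The coding parts of both exons are shown with the corresponding A exon of Itga3, another alpha chain with A and B tails. Capitals mark 5 codons for the membrane-proximal motif of integrin alpha chains and the stop codon. They come from GENCODE transcripts on GRCm38, at chr2:71853534-71853641 and chr2:71855854-71856015 on the plus strand and chr11:95046480-95046590 on the minus strand.
alpha6A: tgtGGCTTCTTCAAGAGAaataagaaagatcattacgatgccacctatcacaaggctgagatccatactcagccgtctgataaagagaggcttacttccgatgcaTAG
alpha6B: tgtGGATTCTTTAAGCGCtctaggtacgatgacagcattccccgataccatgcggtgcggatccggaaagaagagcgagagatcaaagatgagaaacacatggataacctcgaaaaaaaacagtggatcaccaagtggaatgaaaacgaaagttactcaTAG
alpha3A: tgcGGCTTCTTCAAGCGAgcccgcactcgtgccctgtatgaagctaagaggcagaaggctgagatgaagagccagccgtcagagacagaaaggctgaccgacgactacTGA

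All 3 tails start with the motif, at bases 4 to 18 of the exon. The A and B forms of Itga6 share 11 of its 15 bases, and the A forms of Itga6 and Itga3 share 14. There are 35 codons before the stop in alpha6A, 53 in alpha6B and 36 in alpha3A.

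The A exon of Itga6 was read at about the level of the exon before it in MEF and on day 6, and at well under that level in the pluripotent lines. Its own level was 38.5 RPKM in MEF and 172 RPKM on day 6. The OSKM NSC had 113 RPKM (Tomato-positive) and 213 RPKM (Tomato-negative), brain NSC 125 RPKM, iPSC 36.9 RPKM and ESC 58.5 RPKM. The ratio of this level to that of the exon before it was 1.02 (0.845 to 1.24) in MEF and 1.15 (1.05 to 1.26) on day 6. Among the neural cells it was 0.755 (0.644 to 0.886) in the Tomato-positive line, 0.870 (0.803 to 0.942) in the Tomato-negative line and 0.684 (0.604 to 0.774) in brain NSC. It was 0.411 (0.356 to 0.474) in iPSC and 0.406 (0.355 to 0.464) in ESC. The intervals of day 6 and of both pluripotent lines did not overlap. Pou5f1 (Oct4) was at 886 RPKM on day 6, against 2067 RPKM in iPSC and 1409.7 RPKM in ESC. Both pluripotent lines lay below every other library, and the 3 neural libraries lay between them and day 6. The ratio compares the exon with its neighbour and is not a share of transcripts, since reads fall unevenly along a gene. Against the median of 23 coding exons it was higher on day 6, at 1.46, and in ESC, at 0.560, and the 2 pluripotent lines stayed lowest. Coverage was less even on day 6 than elsewhere: over exons of at least 75 bases in the members at 20 RPKM or more, the median coefficient of variation was 0.651 on day 6 (13 genes) and between 0.344 and 0.476 in the other libraries.

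**Figure D1:**
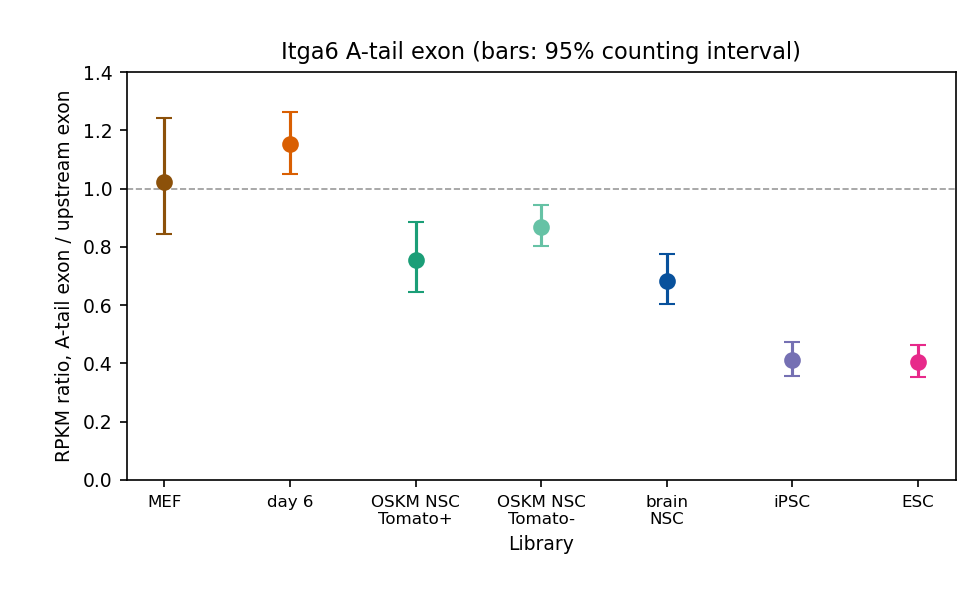
RPKM of the Itga6 A-tail exon divided by the RPKM of the exon before it, in each of the 7 libraries (1 point each); bars are 95% intervals of the read counts and the dashed line is equal coverage. Day 6 (1.15) and MEF (1.02) are at or above the line, the 3 neural libraries lie between 0.684 and 0.870, and iPSC (0.411) and ESC (0.406) are lowest.

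The A exon of Itga3 had enough reads in only some of the libraries, and its intervals there overlapped. Its ratio to the exon before it was 0.833 (0.696 to 0.996) on day 6, against 1.03 (0.882 to 1.20) in MEF, 0.803 (0.645 to 0.999) in iPSC and 0.703 (0.494 to 0.997) in ESC. These intervals overlap, but overlap alone does not show that the libraries are alike, and a difference between them was not tested. In the Tomato-positive line it was 1.48 (0.689 to 3.32), from 20 reads. The Tomato-negative and brain NSC had too few reads of Itga3 to compare. In Itga7 a second alternative exon of 120 bases, at chr10:128941822-128941941, lies in the part of the gene that codes for the extracellular domain. Its ratio to the exon before it was 0.653 (0.419 to 0.992) in the Tomato-positive line, 1.44 (1.06 to 1.96) in the Tomato-negative line and 0.867 (0.636 to 1.17) in brain NSC, against 0.554 (0.424 to 0.716) in MEF. The interval of the Tomato-negative line lay above those of MEF and of the Tomato-positive line, and the interval of brain NSC overlapped all 3.

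Among the laminin-binding alpha chains, the levels of Itga6, Itga3 and Itga7 followed separate courses. Itga6 stood at 21.5 RPKM in MEF and 81.9 RPKM on day 6. The Tomato-positive OSKM NSC had 84.0 RPKM, the Tomato-negative line 133 RPKM and brain NSC 104 RPKM, while iPSC had 49.9 RPKM and ESC 59.5 RPKM. MEF were thus lowest, and Itga6 was the most abundant alpha chain on day 6 and in all 3 neural libraries, with 43.4% of the summed alpha chain RPKM on day 6. In the other 3 libraries that place was held by Itga5, the alpha chain of the fibronectin receptor. The day 6 read count of Itga6 was 3.81 times that in MEF, scaled to depth, (3.69 to 3.92), and on the scale of RPKM + 1 it was not called. It was called, at 4.11-fold with libraries scaled to equal totals, at 4.09-fold with median-of-ratios scaling and at 5.52-fold by the highest exon of each gene.

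Itga3, which pairs with β1 as a receptor of epithelial laminins, was lower in both OSKM NSC libraries than on day 6. It was at 5.28 RPKM in Tomato-positive and 0.856 RPKM in Tomato-negative OSKM NSC, against 26.7 RPKM on day 6, and at 0.198 RPKM in brain NSC. MEF held 31.9 RPKM, iPSC 14.9 RPKM and ESC 10.3 RPKM. Itga7, the alpha chain of the muscle laminin receptor, did the reverse. It was at 21.2 RPKM in Tomato-positive and 11.1 RPKM in Tomato-negative OSKM NSC and 21.5 RPKM in brain NSC, against 0.0760 RPKM on day 6, where 14 reads were found. In MEF it was at 42.4 RPKM, in a culture where 5 of 6 muscle markers were at least 20 RPKM; their part in the Itga7 level of MEF was not tested. The muscle markers summed to under 1 RPKM in each neural library, where Itga7 was present.

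**Figure D2:**
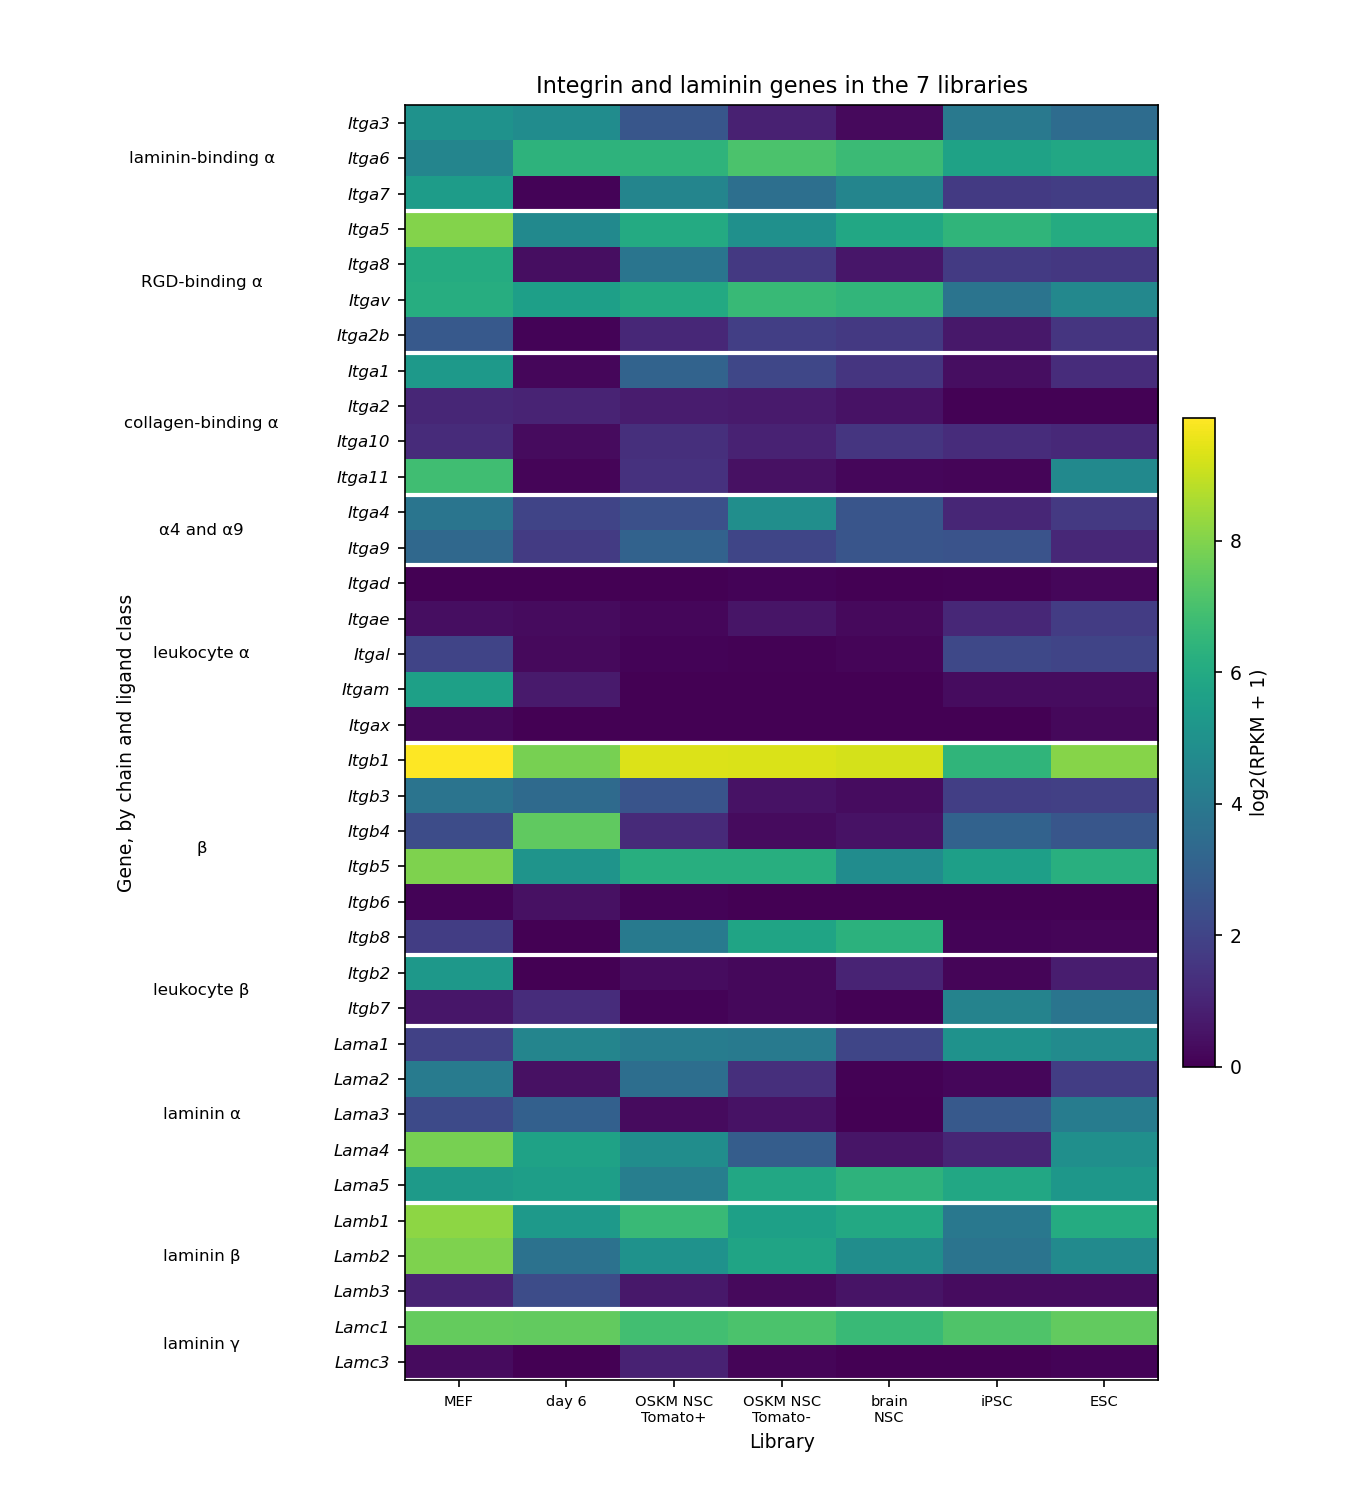
Levels of 36 integrin and laminin genes as log2(RPKM + 1) (colour) in the 7 libraries (columns, 1 library each), grouped by chain and ligand class. Itgb1 is the brightest integrin row in every library, Itgb4 is bright only on day 6 (174 RPKM), Itgb8 only in the 3 neural libraries and Itgb7 only in iPSC and ESC.

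Of the 29 members at 2 RPKM or more in day 6 cells or MEF, 3 rose on day 6 and 14 fell. Over all genes 8.23% rose and 16.1% fell. The median log2 ratio of the members was -1.81, against -0.13 over all 16154 genes. Itgb4 and Lama1 were among those that rose.

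Itgb4 (chr11:115974709-116008412, plus strand, GRCm38), the beta chain that pairs only with α6 and links laminin to keratin filaments in hemidesmosomes, rose on day 6. Its level was 3.95 RPKM in MEF and 174 RPKM on day 6. The Tomato-positive OSKM NSC had 1.26 RPKM, the Tomato-negative line 0.223 RPKM and brain NSC 0.415 RPKM, while iPSC had 7.60 RPKM and ESC 5.24 RPKM. Every library but day 6 was under 8 RPKM. The day 6 level was 44.0 times that in MEF (42.9 to 48.1 by reads), 22.9 times that in iPSC and 33.1 times that in ESC. Among the beta chains of the day 6 cells it made up 39.2% of the summed RPKM, next to 50.8% for Itgb1. It was also the one member called higher on day 6 against both pluripotent lines, of 26 tested, where 3.47% of all genes were higher. With equal-total or median-of-ratios scaling Lamb3 was called as well. The members' median log2 ratio on day 6 was 0.27 to iPSC and -0.28 to ESC, against -0.23 and -0.40 over all genes.

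Lama3 and Lamb3, which code for an alpha and a beta chain of epithelial laminin, were higher on day 6 than in MEF but short of a call. Lamb3 was at 3.96 RPKM on day 6, against 0.920 RPKM in MEF. The ratio was 4.30 (3.72 to 5.22 by reads), but with 1 RPKM added to each value it was not a call. Lama3 was at 7.21 RPKM on day 6, against 3.67 RPKM in MEF, over all of its exons.

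Outside day 6 these chains did not keep together. In ESC, Lama3 (16.8 RPKM) was above its day 6 level, while Lamb3 was at 0.271 RPKM. In iPSC, Lama3 was at 5.83 RPKM and Lamb3 at 0.239 RPKM. Lamb3 on day 6 was 16.5 times its level in iPSC (12.7 to 22.1) and 14.6 times that in ESC (11.2 to 20.9), so Lama3 and Lamb3 both passed 2 RPKM on day 6 alone. In the OSKM NSC libraries Lama3 (0.220 RPKM in Tomato-positive, 0.388 RPKM in Tomato-negative) was lower than on day 6. Brain NSC had no read of Lama3.

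**Figure D3:**
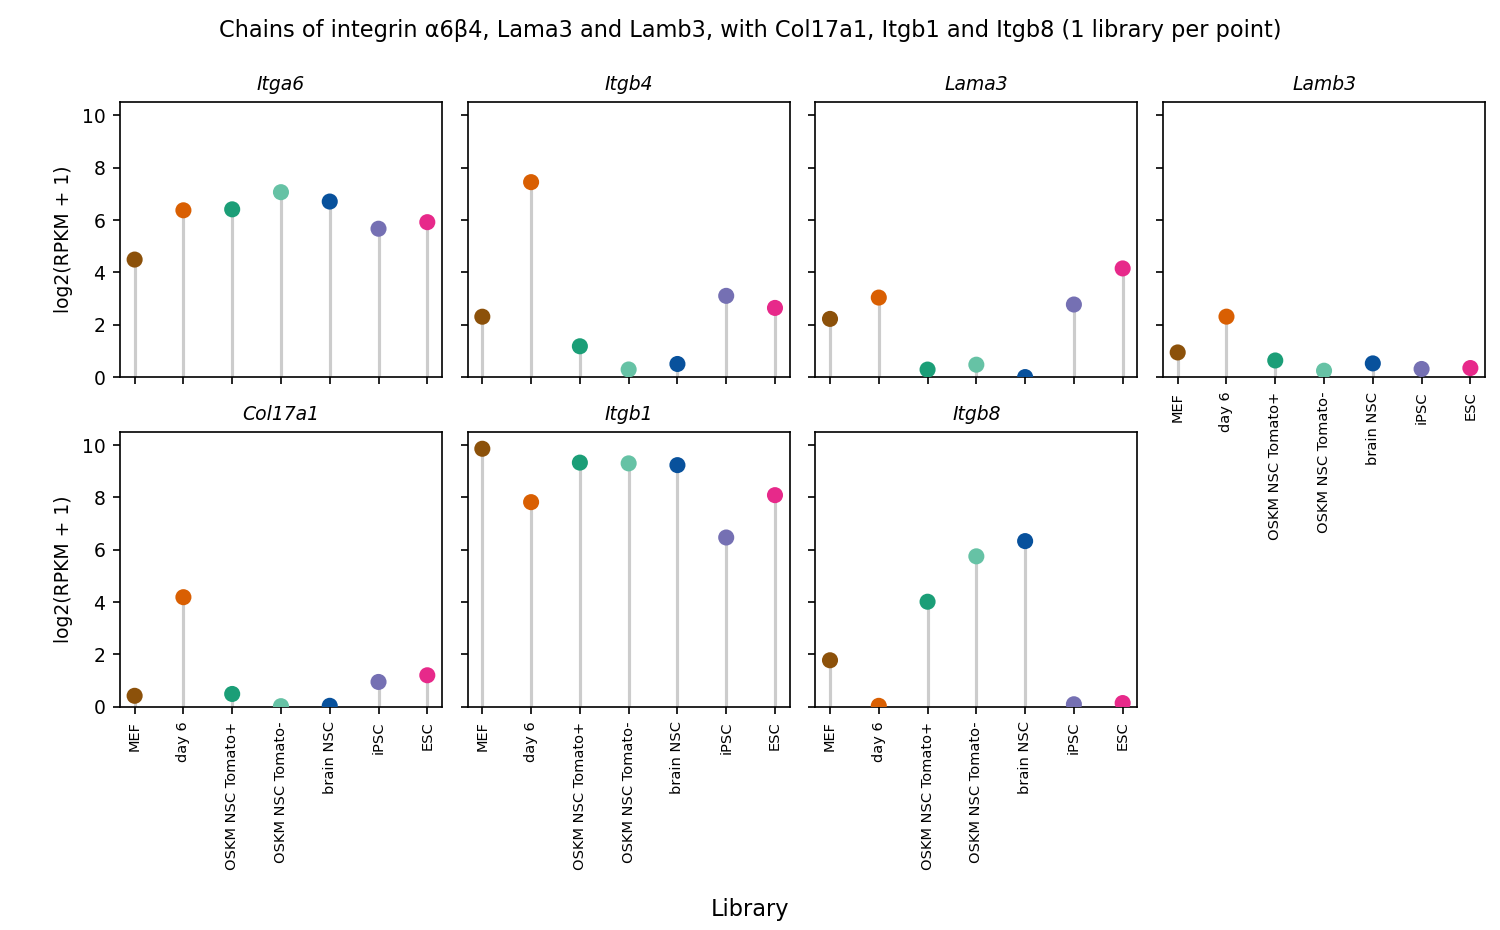
log2(RPKM + 1) of the chains of integrin α6β4 (Itga6, Itgb4) and of Lama3 and Lamb3, with Col17a1, Itgb1 and Itgb8 for comparison; each point is 1 of the 7 libraries. Itgb4, Lamb3 and Col17a1 are highest on day 6, Lama3 is highest in ESC, and Itgb8 is high only in the neural libraries.

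The exons of Lama3 told apart its long and short transcripts. The annotation has 38 exons in the long transcript only and 37, towards the 3′ end, in both. On day 6 the shared exons were at 14.2 RPKM and the long-only exons at 0.0586 RPKM, with 14 reads over the 38 exons. In iPSC the shared exons were at 11.4 RPKM and the long-only exons at 0.145 RPKM, and in ESC they were at 32.9 RPKM and 0.174 RPKM. MEF differed, with 5.67 RPKM over the shared and 1.61 RPKM over the long-only exons. The ratio of long-only to shared exons was thus 0.00414 (0.00226 to 0.00696) on day 6, 0.0129 (0.00933 to 0.0173) in iPSC and 0.00528 (0.00372 to 0.00729) in ESC, against 0.284 (0.253 to 0.319) in MEF. In day 6 cells and both pluripotent lines nearly all Lama3 reads came from the exons of the short transcript, the form known from skin. Counted over the shared exons alone, Lama3 was at 14.2 RPKM on day 6, against 5.67 RPKM in MEF. In Tomato-negative OSKM NSC both parts of the gene were under 0.5 RPKM, and the long-only exons stood at 0.691 (0.502 to 0.946) of the shared ones.

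**Figure D4:**
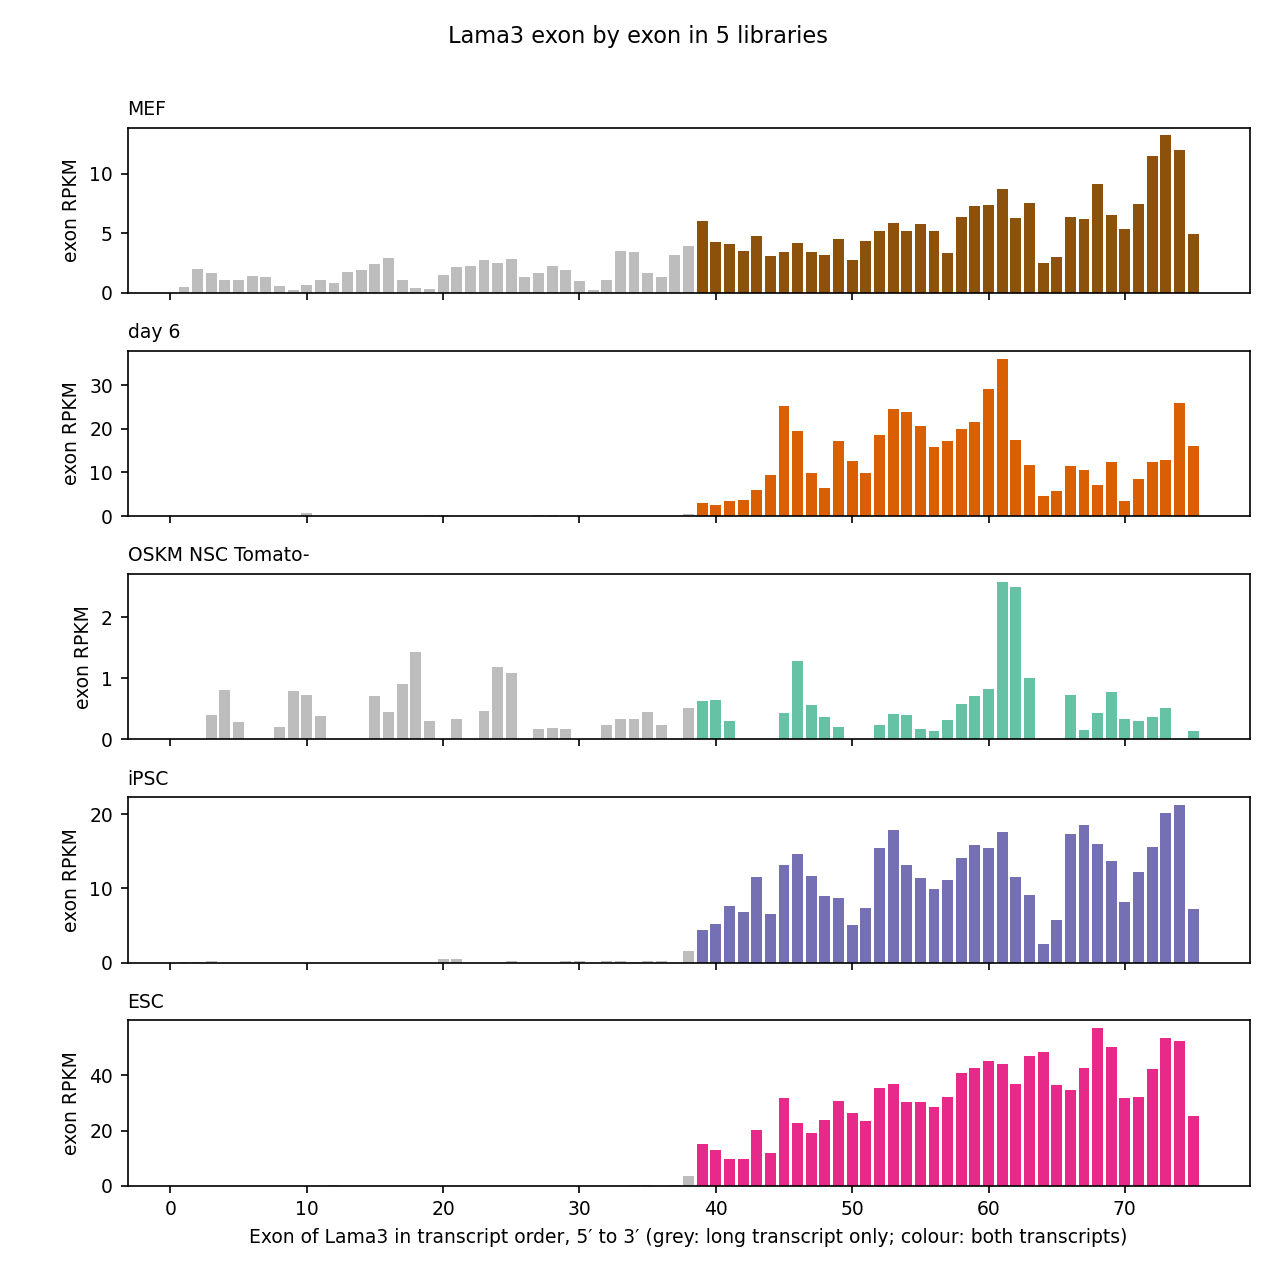
RPKM of each Lama3 exon (bars) in transcript order in 5 libraries, each with its own vertical scale; grey bars are exons of the long transcript only and coloured bars exons of both transcripts. On day 6 and in iPSC and ESC the grey exons are near 0, while in MEF they average 1.61 RPKM, against 5.67 RPKM for the coloured exons.

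The partners of α6β4 in hemidesmosomes were the one pathway list with a call upward on day 6. Of 6 genes tested against MEF, 3 rose and 0 fell, where 8.23% of all genes rose and 16.1% fell. The median log2 ratio was 1.92, against -0.13 over all genes. Col17a1, a transmembrane collagen of hemidesmosomes, was at 17.2 RPKM on day 6, against 0.338 RPKM in MEF, and in no other library passed 1.31 RPKM. Krt14, a keratin of basal epidermis, was at 391 RPKM on day 6, against 25.8 RPKM in MEF. Dst (69.4 RPKM on day 6, against 14.7 RPKM in MEF), which codes for the plakin that ties keratin to β4, also rose. Plec, the other plakin, was at 68.1 RPKM on day 6, against 23.2 RPKM in MEF, short of a call. Krt5, the usual partner of Krt14, was at 18.5 RPKM on day 6, against 5.11 RPKM in MEF, but was highest in Tomato-positive OSKM NSC, at 75.8 RPKM, where Itgb4 was at 1.26 RPKM. Cd151 went the other way without a call, at 123 RPKM on day 6, against 194 RPKM in MEF. It was highest in Tomato-positive OSKM NSC, at 225 RPKM. Of 8 general epithelial markers 7 rose on day 6. Their sum was 1692 RPKM on day 6, against 86.3 RPKM in MEF, and ranged elsewhere between 0.548 RPKM (brain NSC) and 742 RPKM (ESC). Whether a subset of the sorted cells carried them was not tested, and in these bulk samples fewer cells of a type and less RNA per cell cannot be told apart.

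Lama1, the alpha chain of the first basement membrane of the embryo, also rose on day 6, although with 4 RPKM added in place of 1 the difference was 3.75-fold and not a call. It stood at 2.74 RPKM in MEF and 21.2 RPKM on day 6. The Tomato-positive OSKM NSC had 16.7 RPKM, the Tomato-negative line 15.6 RPKM and brain NSC 3.22 RPKM, while iPSC had 31.4 RPKM and ESC 26.1 RPKM. MEF and brain NSC were low and the other 5 libraries lay within 15 and 32 RPKM. The OSKM NSC thus kept Lama1 apart from brain NSC, at 5.20 times the brain level in Tomato-positive (4.81 to 5.63) and 4.86 times in Tomato-negative cells (4.54 to 5.26), but on the scale of RPKM + 1 only Tomato-positive cells passed 4-fold.

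Of the 14 members that fell on day 6, 10 were integrin chains and 4 laminin chains. Itga11, a collagen receptor chain of fibroblasts, fell to 0.0962 RPKM on day 6, against 114 RPKM in MEF. Itga8, which binds nephronectin and other proteins with an RGD motif, was at 0.273 RPKM on day 6, against 65.5 RPKM in MEF. Itga1, another collagen receptor chain, was at 0.121 RPKM on day 6, against 37.9 RPKM in MEF. Itga5 was at 24.8 RPKM on day 6, against 262 RPKM in MEF, and Itgb5, a vitronectin receptor chain that pairs with αv, at 33.1 RPKM against 245 RPKM in MEF. Itgb1, which pairs with most alpha chains, was at 225 RPKM on day 6, against 929 RPKM in MEF. This was a call on the values as deposited, but not with equal-total (3.67-fold) or median-of-ratios scaling (3.72-fold) or by the highest exon (2.94-fold). Itgb1 was the most abundant beta chain in each of the 7 libraries. By contrast Itgav, the αv chain, was at 47.0 RPKM on day 6, against 69.2 RPKM in MEF, and was not called in any comparison. Itgb3, its partner in another vitronectin receptor, was at 9.51 RPKM on day 6, against 12.8 RPKM in MEF.

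The 4 laminin chains that fell were Lama4, Lamb2, Lamb1 and Lama2. Lama4, found around vessels and in mesenchymal tissue, was at 50.8 RPKM on day 6, against 229 RPKM in MEF, and its call was lost with equal-total scaling (3.96-fold) and by the highest exon (3.40-fold). Lamb2 was at 12.3 RPKM on day 6, against 246 RPKM in MEF, Lamb1 at 38.7 RPKM against 290.0 RPKM in MEF, and Lama2, the main alpha chain of muscle, at 0.369 RPKM against 16.1 RPKM in MEF. By the highest exon Lama2 differed 1.94-fold and was not called. Lama5, an alpha chain of most basement membranes, was at 45.5 RPKM on day 6, against 40.5 RPKM in MEF. Lamc1, the common gamma chain, lay between 103 RPKM in brain NSC and 182 RPKM in MEF. All 10 fibroblast markers fell beside these genes: they summed to 129.8 RPKM on day 6, against 37628 RPKM in MEF, and ranged elsewhere between 12.3 RPKM (brain NSC) and 4021 RPKM (ESC), with none at 0. Their part in the falls was not tested.

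**Figure D5:**
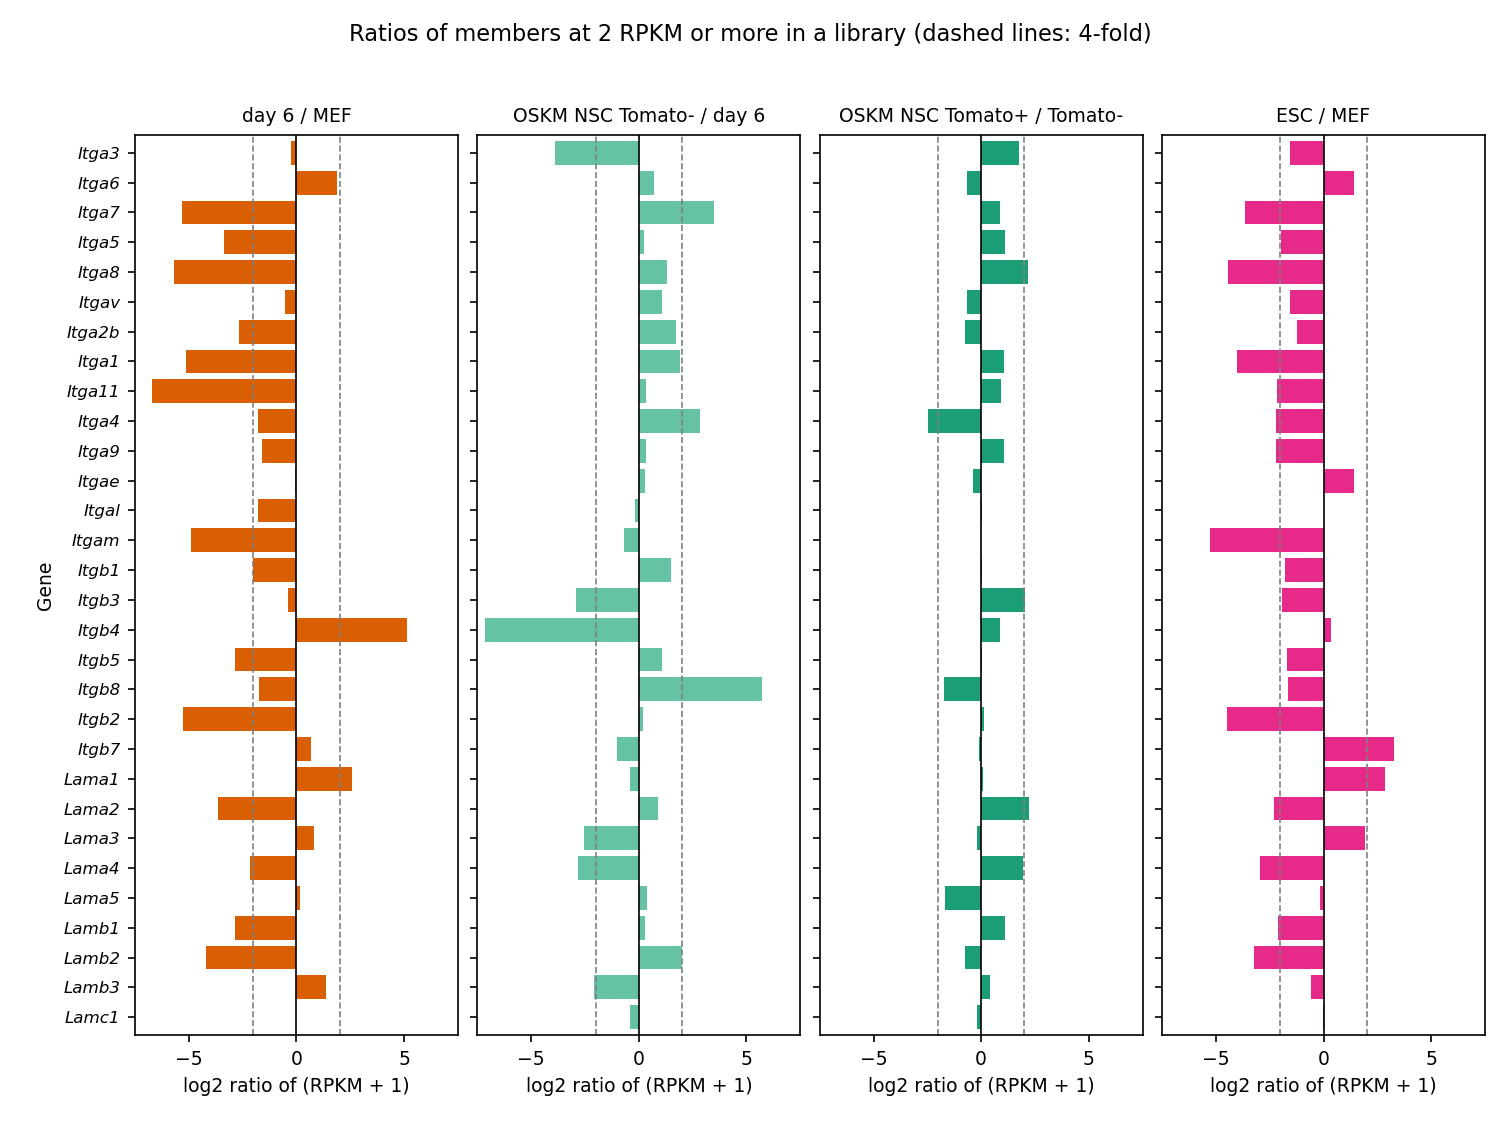
log2 ratio of RPKM + 1 for 30 members that reached 2 RPKM in a library, in 4 of the pairs of libraries (columns); bars to the right are higher in the library named before the slash, and dashed lines mark 4-fold. On day 6 against MEF 2 bars pass the right line and 14 the left one, and Itgb4 is among the longest bars both there and in Tomato-negative OSKM NSC against day 6, with opposite sign.

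The leukocyte chains Itgb2 and Itgam were found mainly in MEF. Itgb2, the beta chain shared by leukocyte receptors, had no read on day 6, where 3 reads would be 0.0220 RPKM, against 37.4 RPKM in MEF. It was under 1 RPKM in the other 5 libraries. Itgam, the alpha chain of the macrophage and neutrophil receptor, was at 0.636 RPKM on day 6, against 47.4 RPKM in MEF, from the 11 of its exons that were in the data. Of 10 leukocyte markers 9 fell on day 6 against MEF, and Ptprc (CD45), Tyrobp and Fcer1g had no read on day 6, against 15.1 RPKM for Ptprc, 524 RPKM for Tyrobp and 325 RPKM for Fcer1g in MEF. The 10 markers summed to 95.8 RPKM on day 6, mostly Laptm5 (63.5 RPKM) and Cd68 (28.9 RPKM), against 3690.3 RPKM in MEF. The part of such cells in the Itgb2 and Itgam levels was not tested. Itga2b, which marks megakaryocytes and early blood cells, was at 0.0633 RPKM on day 6, against 5.81 RPKM in MEF, which was not a call with 4 RPKM added (2.41-fold), and the platelet marker Pf4 was at 0 RPKM on day 6, against 348 RPKM in MEF.

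Of 23 tested genes that activate integrins or link them to actin, 6 fell and 0 rose on day 6 against MEF, where 16.1% of all genes fell and 8.23% rose. Vcl (vinculin), which ties talin to actin, fell to 36.2 RPKM on day 6, against 505 RPKM in MEF. Ilk, a scaffold at the β1 tail, fell to 48.5 RPKM on day 6, against 330.3 RPKM in MEF, and Zyx (zyxin), another focal adhesion protein, to 26.2 RPKM on day 6, against 202 RPKM in MEF. Flna (filamin A) was at 184 RPKM on day 6, against 579 RPKM in MEF, and Actn1 (an actinin) at 178 RPKM on day 6, against 441 RPKM in MEF, both short of a call. Ptk2, the focal adhesion kinase, was at 72.6 RPKM on day 6, against 54.8 RPKM in MEF.

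Of 10 tested basement membrane partners 8 fell, where 16.1% of all genes fell, the share that also stands against the lists below. Among them were the type IV collagen genes, with Col4a1 at 20.9 RPKM on day 6, against 822 RPKM in MEF, and Col4a2 at 15.0 RPKM on day 6, against 601 RPKM in MEF. The nidogens, which bridge laminin and collagen IV, fell as well, with Nid1 at 82.0 RPKM on day 6, against 374 RPKM in MEF, and Nid2 at 9.12 RPKM on day 6, against 242 RPKM in MEF. Agrn (agrin), a laminin-binding proteoglycan, fell to 14.2 RPKM on day 6, against 209 RPKM in MEF. Of 10 tested other integrin ligands 8 fell. Fn1 (fibronectin) was at 217 RPKM on day 6, against 2583 RPKM in MEF, Spp1 (osteopontin) at 22.1 RPKM on day 6, against 3035 RPKM in MEF, Thbs1 (thrombospondin 1) at 7.55 RPKM on day 6, against 1105 RPKM in MEF, and Tnc (tenascin-C) at 1.21 RPKM on day 6, against 543 RPKM in MEF. Of 6 laminin receptors that are not integrins 4 fell, among them Bcam at 0.870 RPKM on day 6, against 39.3 RPKM in MEF, and Dag1 (dystroglycan) at 21.9 RPKM on day 6, against 93.7 RPKM in MEF. Rpsa (ribosomal protein SA), the most abundant of the 6, was higher without a call, at 1746 RPKM on day 6, against 1138 RPKM in MEF. With it the 6 genes summed to 1901 RPKM on day 6, against 1709 RPKM in MEF. Most of both sums was Rpsa, so they do not show the level of the other laminin receptors. Of the syndecans, Sdc4 was at 32.5 RPKM on day 6, against 156 RPKM in MEF, Sdc2 at 17.9 RPKM on day 6, against 133 RPKM in MEF, and Sdc1, which was not called, at 82.0 RPKM on day 6, against 149 RPKM in MEF. The median log2 ratio to MEF was -1.21 for the activation and linkage genes, -2.34 for the basement membrane partners, -4.05 for the other ligands and -2.14 for the other laminin receptors, against -0.13 over all genes.

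In the converted neural cells 2 of 25 members tested were higher than on day 6 in both OSKM NSC libraries and 4 were lower. Over all genes 8.54% were higher and 5.23% lower. The members' median log2 ratio was 0.40 in Tomato-positive and 0.38 in Tomato-negative cells, against 0.51 and 0.32 over all genes. Those higher were Itgb8 and Itga7, and Itgb4, Lama3 and Itga3 were among those lower. With 4 RPKM added in place of 1 the calls of Itga7 (3.70-fold), Lama3 (2.56-fold) and Itga3 (3.31-fold) were lost, each by its value in the OSKM NSC library nearer to day 6, while those of Itgb8 and Itgb4 were not.

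Itgb8 (chr12:119158022-119238802, minus strand), which pairs with αv and is known in the brain for release of active TGFβ, marked the neural libraries. It was found at 2.43 RPKM in MEF and 0.0259 RPKM on day 6. The Tomato-positive OSKM NSC had 15.2 RPKM, the Tomato-negative line 52.8 RPKM and brain NSC 79.6 RPKM, while iPSC had 0.0698 RPKM and ESC 0.104 RPKM. The 3 neural libraries lay above all others, with brain NSC highest. Tomato-negative OSKM NSC had 18640 reads of it, against 10 reads on day 6. The read ratio to day 6 was 586 (318 to 1224) in the Tomato-positive line and 2042 (1109.9 to 4258) in the Tomato-negative line. Tgfb1, a ligand that is activated through αv integrins, was at 13.0 RPKM in Tomato-positive OSKM NSC, 0.733 RPKM in Tomato-negative OSKM NSC and 0.460 RPKM in brain NSC, against 4.99 RPKM on day 6.

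Against brain NSC, calls were few among the members and among all genes alike, with both OSKM NSC libraries required to pass. Of 21 tested, 1 was higher in both OSKM NSC libraries and 0 were lower, where 1.97% of all genes were higher and 1.1% lower. With 4 RPKM added in place of 1 that count was 0. The members' median log2 ratio was 0.17 in Tomato-positive and 0.36 in Tomato-negative cells, against 0.28 and 0.09 over all genes. The higher member was Lama4, at 27.2 RPKM in Tomato-positive and 6.42 RPKM in Tomato-negative OSKM NSC, against 0.466 RPKM in brain NSC. Of the 10 fibroblast markers 9 were also higher in both than in brain NSC, and their part in Lama4 was not tested. Several of the main chains were close: Itgb1 was at 643 RPKM in Tomato-positive, 630.4 RPKM in Tomato-negative and 602 RPKM in brain NSC. Tomato-positive cells taken alone had 6 members higher and 2 lower than brain NSC, where 6.99% of all genes were higher and 2.97% lower. Tomato-negative cells alone had 2 higher and 0 lower, where 3.1% of all genes were higher and 1.57% lower.

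The Tomato-positive and Tomato-negative lines differed from each other in 4 of 21 members. Of these, 3 were higher in Tomato-positive cells and 1 was lower, against 2.77% and 0.881% of all genes. The median log2 ratio was 0.09 over the members and 0.19 over all genes. Lama2 was at 10.9 RPKM in Tomato-positive cells, against 1.53 RPKM in Tomato-negative cells, a ratio of 7.10 (6.47 to 7.77). Itga8 was at 13.2 RPKM in Tomato-positive cells, against 2.11 RPKM in Tomato-negative cells. Itgb3 was at 4.83 RPKM in Tomato-positive cells, against 0.412 RPKM in Tomato-negative cells. Itga4, an alpha chain that binds Vcam1 and fibronectin, was the reverse, at 4.33 RPKM in Tomato-positive cells, against 28.3 RPKM in Tomato-negative cells, a ratio of 0.153 (0.143 to 0.165). Its ligand gene Vcam1 was at 12.8 RPKM in Tomato-positive cells, against 8.53 RPKM in Tomato-negative cells. With median-of-ratios scaling none of the 3 higher genes reached 4-fold, and with 4 RPKM added in place of 1 none of the 4 did. By the highest exon of each gene Lama2 (1.90-fold) and Itga8 (3.19-fold) were not called, and with equal-total scaling Itgb3 (3.81-fold) was not. The 3 higher genes were also above their Tomato-positive level in MEF, where Lama2 was at 16.1 RPKM, Itga8 at 65.5 RPKM and Itgb3 at 12.8 RPKM. The fibroblast markers summed to 1977 RPKM in Tomato-positive cells, against 162 RPKM in Tomato-negative cells, with 7 of 10 called higher, and none was at 0; their part in these differences was not tested. Col4a1 (323 RPKM in Tomato-positive cells, against 38.5 RPKM in Tomato-negative cells) and Spp1 (1985 RPKM against 86.6 RPKM in Tomato-negative cells), which codes for the integrin ligand osteopontin, differed the same way.

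The leading laminin alpha chain differed among the neural lines. Lama5 was at 17.8 RPKM in Tomato-positive OSKM NSC, 59.5 RPKM in Tomato-negative OSKM NSC and 82.4 RPKM in brain NSC, where it made up 24.4%, 71.3% and 95.7% of the summed laminin alpha chain RPKM. Lama4 led in Tomato-positive cells, with 37.3%. Among the beta chains Lamb2 led in Tomato-negative cells alone, with 52.7%, and Lamb1 in the other 6 libraries.

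Set against MEF, 28 members were tested in the neural cells. In OSKM NSC 2 were higher, Itgb8 and Lama1, and 9 lower, where 3.81% of all genes were higher and 7.66% lower. In brain NSC 2 were higher, Itgb8 and Itga6, and 15 lower, where 7.24% of all genes were higher and 13.3% lower. The members' median log2 ratio to MEF was -1.59 in Tomato-positive OSKM NSC, -1.99 in Tomato-negative OSKM NSC and -2.18 in brain NSC, against 0.37, 0.23 and 0.14 over all genes. Itgb8 was at 79.6 RPKM in brain NSC, against 2.43 RPKM in MEF (32.7 times, 30.6 to 35.0). Lama4 was at 0.466 RPKM in brain NSC, against 229 RPKM in MEF. These comparisons share the MEF library with that of day 6, and the strains differ in each. With median-of-ratios scaling neither Itgb8 nor Lama1 reached 4-fold in both OSKM NSC libraries, nor with 4 RPKM added in place of 1.

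In the pluripotent lines 2 of 30 members tested were higher than in MEF and 11 were lower, where 7.44% of all genes were higher and 9.01% lower. The members' median log2 ratio was -2.03 in iPSC and -1.74 in ESC, against 0.14 and 0.26 over all genes. Lama1 and Itgb7 were the higher ones, although with 4 RPKM added in place of 1 Itgb7 was not called (3.88-fold in ESC). Itgb7 (chr15:102215995-102231935, minus strand), the beta chain that pairs with α4 and αE in lymphocytes, was at 0.494 RPKM in MEF and 1.36 RPKM on day 6. The Tomato-positive OSKM NSC had 0.0754 RPKM, the Tomato-negative line 0.171 RPKM and brain NSC 0.0531 RPKM, while iPSC had 20.4 RPKM and ESC 13.4 RPKM. Both pluripotent lines stood above the other 5 libraries. Its ratio to MEF was 41.3 (31.9 to 53.6) in iPSC and 27.2 (20.9 to 35.4) in ESC. It was the one member called lower on day 6 than in both pluripotent lines, where 6.7% of all genes were lower, but not with 4 RPKM added (3.26-fold). Its partner genes Itga4 and Itgae were low in both lines, Itga4 at 1.06 RPKM in iPSC and 2.09 RPKM in ESC and Itgae at 1.12 RPKM in iPSC and 2.40 RPKM in ESC. Itgal, the alpha chain of a lymphocyte receptor, was at 3.37 RPKM in iPSC and 3.10 RPKM in ESC, against 3.06 RPKM in MEF. The 10 leukocyte markers summed to 364 RPKM in iPSC, 311 RPKM in ESC and 3690.3 RPKM in MEF. Among them Laptm5 was at 293 RPKM in iPSC and 142 RPKM in ESC, while Ptprc (CD45) was at 0.0561 RPKM in iPSC and 0.106 RPKM in ESC. Their part in the Itgb7 and Itgal levels was not tested.

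The 2 pluripotent lines differed in several chains that were abundant in MEF. Itga11 was at 0.104 RPKM in iPSC and 24.4 RPKM in ESC, Lama4 at 1.01 RPKM in iPSC and 29.0 RPKM in ESC, and Lamb1 at 14.3 RPKM in iPSC and 66.4 RPKM in ESC. The fibroblast markers summed to 110.3 RPKM in iPSC and 4021 RPKM in ESC, which were grown with feeders. The part of feeder cells in these levels was not tested. Itga9, an alpha chain that binds tenascin and other ligands, was not called in any of the 8 comparisons on the values as deposited and lay between 1.13 RPKM in ESC and 8.95 RPKM in MEF.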

How the data were processed

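The authors deposited RPKM values per exon (reads per kilobase, scaled to library depth) for 7 mouse libraries, 1 per population; the unit was read from the values, since exon RPKM times exon length fell on whole reads for between 96.3% and 96.5% of the values tested, within 0.01 read plus 1e-05 of the value. CASAVA 1.8.2, Bowtie, TopHat2 2.0.10, bedtools and mm10 are named in the submitters' processing notes, with no role given. Steps such as the treatment of multiply mapped reads or of strand are not given in the sources used here, so reads of overlapping genes cannot be told apart by strand. Of 279252 exons, 270168 (96.7%) were matched by ID to GENCODE M21 (GRCm38), and 9084 unmatched exons were left out. A gene's level is the mean of its exon RPKM weighted by exon length, over 29686 genes, and exons that share bases are each counted. Depth, 19 to 58 megareads, came from the steps of the values.

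Ratios are log2 of RPKM + 1. A gene was tested where a compared library reached 2 RPKM and called at 4-fold, in every pair where a side has 2 libraries, for 8 comparisons. No p-value was computed, since each population has 1 library. In a simulation of day 6 against MEF on 29686 genes, 10.0% of genes changed 4-fold and 100% of those changed 8-fold were called, and 0% of unchanged genes. Both simulated libraries were drawn around the MEF levels with counting error alone, and the changed genes were at 8 RPKM or more in MEF. The simulation holds no spread between cultures, strains or libraries, so it gives no rate of false calls for the real libraries. Exon ratios use recovered reads with exact 95% (Clopper-Pearson) intervals of counting error. A share of 2 exclusive exons had been planned for the alternative exons. The data hold a skipped exon but not 2 exons that exclude each other, so the ratio to the exon before it was used. For Itga6 the last exon, with the B tail, is in the data, but its bases are in A-form transcripts too. The values of 1 member are not reported here, although the counts and medians over members include it. The members and the 13 gene lists were chosen with earlier results of these data known. Other members that reached 2 RPKM are named by role, and of each list up to 4 genes with the highest RPKM among those past 4-fold, plus markers. Nid2, Col17a1, Ptk2, Zyx, Cd68, Bcam, Vcam1, Tgfb1, Vtn and Icam1 were named after their values were seen. Alternatives were 2 other scalings, pseudocounts of 0.25 and 4 RPKM, floors of 0.4 and 8 RPKM, a 2-fold threshold, the highest exon of each gene, exons shared with no other gene, and each of 2 libraries alone. The ratio to the median exon and the median over Lama3 exons were added after seeing the data. Python 3.11.15, numpy 2.4.6, pandas 2.3.3, scipy 1.17.1 and matplotlib 3.10.9 were used.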

Additional observations from a re-analysis of the deposited data

How the results depend on the processing

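With 1 library per population neither replicate spread nor the effect of leaving out a replicate could be measured. No paired analysis was possible because each population has 1 library and no test was made. No call changed direction under any alternative. The cause of the changes in the counts below was not tested. Median-of-ratios scaling shifts log2 values by between -0.32 (Tomato-positive OSKM NSC) and 0.29 (day 6).

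With a pseudocount of 4 RPKM, there were 1 member higher for day 6 against MEF, 1 higher and 2 lower for OSKM NSC against day 6, 0 higher against brain NSC, 0 higher and 0 lower for Tomato-positive against Tomato-negative, 0 higher for OSKM NSC against MEF, 1 higher for pluripotent lines against MEF and 0 lower for day 6 against them. With 0.25 RPKM they were 5 higher for OSKM NSC against day 6, 3 higher against brain NSC, 5 higher for Tomato-positive cells, and 2 higher and 4 lower for day 6 against pluripotent lines. At 2-fold there were 5 higher on day 6 against MEF, 7 higher in OSKM NSC against day 6, 5 higher against brain NSC, 9 higher and 3 lower in Tomato-positive cells, 16 lower in OSKM NSC against MEF, 4 higher and 19 lower in pluripotent lines against MEF, and 3 higher and 5 lower on day 6 against them. By each gene's highest exon there were 4 higher in OSKM NSC against day 6, and 3 higher and 2 lower on day 6 against pluripotent lines. Median-of-ratios scaling gave 0 higher in Tomato-positive cells, 0 higher in OSKM NSC against MEF and 2 higher on day 6 against pluripotent lines, and equal-total scaling also gave 2 there.

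Tomato-positive cells alone gave 5 higher against day 6, and 6 higher and 2 lower against brain NSC. Tomato-negative cells alone gave 4 higher and 7 lower against day 6, 2 higher against brain NSC and 14 lower against MEF. Day 6 had 2 members higher than iPSC alone and 2 lower than ESC alone. Against the median exon, the Itga6 A exon stood at 1.46 on day 6, 1.03 in the Tomato-negative line and 0.560 in ESC. The A exon of Itga3 stood at 1.12 on day 6, 1.26 in MEF and 1.04 in the Tomato-positive line. In iPSC it was at 0.877 and in ESC at 0.677, so the pluripotent lines were lowest by this measure. The Itga7 exon stood at 0.259 in MEF. Without division by exon length the Itga7 ratio was 0.306 in the Tomato-positive line, 0.676 in the Tomato-negative line, 0.406 in brain NSC and 0.260 in MEF.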

Other observations

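Of neighbouring Itga6 exons on chromosome 2, those that start at 71845783, 71845973 and 71846164 were at 83.7, 43.1 and 39.7 RPKM on day 6. They lay between an exon at 129 RPKM before them and an exon at 149 RPKM after them. The exon after them is the one to which the A exon of Itga6 was compared. In MEF the same 3 exons were at 46.9, 40.2 and 43.5 RPKM, between exons at 28.1 and 37.6 RPKM. In Tomato-negative OSKM NSC they were at 267, 205 and 236 RPKM, between exons at 144 and 245 RPKM. The 3 exons were thus below both neighbours on day 6 and above the exon before them in the other 2 libraries. A further exon of 103 bases that starts at 71841644 was little used anywhere, with 7.81 RPKM on day 6 as its highest value and 3.47 RPKM in Tomato-negative OSKM NSC as the next.

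Some integrin ligands, picked after their values were seen, differed widely between libraries. Tnc (tenascin-C), a ligand of α9β1 and of αv integrins, was at 819 RPKM in Tomato-positive OSKM NSC, 455 RPKM in Tomato-negative OSKM NSC and 365 RPKM in brain NSC, against 1.21 RPKM on day 6. Vtn (vitronectin) was at 26.9 RPKM in Tomato-positive and 6.05 RPKM in Tomato-negative OSKM NSC and at 0.0637 RPKM in brain NSC. Icam1, a ligand of leukocyte integrins, was at 80.8 RPKM in iPSC and 124 RPKM in ESC, and at 1.65 RPKM on day 6, against 60.2 RPKM in MEF.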
